A study of Homo sapiens with 9 samples.

Results

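The genes described here encode the MHC class I antigen presentation machinery: the heavy chains HLA-B, HLA-C, HLA-E and HLA-F, the light chain B2M, the peptide transporter subunits TAP1 and TAP2, the loading factor tapasin (TAPBP) and the class I transactivator NLRC5. They were picked by symbol, 1 row each, from a count table of 58676 genes. All 9 had enough counts to be among the 15975 genes tested.

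MHC class I molecules display peptides cut from proteins of the cell to cytotoxic T cells. The proteasome makes the peptides, the TAP1 and TAP2 heterodimer pumps them into the endoplasmic reticulum, and tapasin holds the empty heavy chain and its light chain B2M next to the transporter until a peptide binds. In epithelial tumours the amount of these molecules depends on interferon signalling, including IRF1, on NF-kB, and on NLRC5, which is recruited to an array of short motifs shared by class I promoters.

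RNA was sequenced from OVCA433, an established line from a human ovarian serous adenocarcinoma. The cells were transduced with lentivirus carrying hairpin #1 or hairpin #3 against MPZL3, which encodes a membrane protein of the myelin protein zero family, or with a control vector. Each of these 3 groups had 3 libraries, lettered A, B and C, described by the study as biological replicates. The same line, cultured the same way, was used for all groups, so a result describes this 1 line. The control vector is called empty in one place by the study and a scrambled hairpin in another, so whether it expresses a hairpin is uncertain.

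Library totals ran from 16850854 to 23890191 counts. MPZL3 stood at 15.6 to 21.9 CPM (counts per 1000000, scaled with edgeR's TMM factors) in the control libraries and at 0.988 to 1.98 CPM in the 6 knockdown libraries, a fitted log2 fold change of -3.49. Of the 7 epithelial and serous markers checked, WT1 had no count in any library, and the keratin KRT8 stood at 4816 ± 237 CPM in the control libraries, beside 2114 ± 209 for hairpin #1 and 2148 ± 140 for hairpin #3 (SD, n = 3). EPCAM, an epithelial adhesion molecule, stood at 403 ± 23.6, 5.48 ± 1.25 and 8.93 ± 1.34 CPM in the same order. The 8 markers of immune and endothelial cells summed to 0.23 to 1.59 CPM in every library, and the B cell marker MS4A1 was at 0 throughout. Of the 7 epithelial and serous markers 6 were tested, and 4 were called lower over both hairpins (KRT8, KRT18, EPCAM and MUC16). PAX8, a transcription factor of the Müllerian lineage, was called higher (log2 fold change 1.07, adjusted p = 2.25e-05), and KRT7 did not pass (-0.47, adjusted p = 0.0847). Of all tested genes 17% were called lower and 15.9% higher. MUC16 had no count in the knockdown libraries, so it was tested through its control counts alone and could only be lower. The part of these markers in the results for class I genes was not tested.

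The promoters are shown first because the transactivator and the interferon factors discussed later act on short motifs in them. For 7 of the 9 genes RefSeq gives a start site on GRCh38.p14 with 250 bases before and 50 after it. HLA-E and NLRC5 had no entry. Each stretch below is read 5′ to 3′ on the strand of the gene, upstream of the start site, and capitals mark, on either strand, an interferon regulatory factor core (AANNGAAA), its extended form (GAAA and GAAA with any 2 bases between them), an NF-kB site, or a CCAAT box. Marked motifs can overlap. Each stretch was cut to run from the first to the last marked motif upstream of the start site, with a few bases on either side.
HLA-B: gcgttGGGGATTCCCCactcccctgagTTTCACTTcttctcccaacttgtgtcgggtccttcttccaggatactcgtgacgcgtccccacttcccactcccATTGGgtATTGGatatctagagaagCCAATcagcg
HLA-C: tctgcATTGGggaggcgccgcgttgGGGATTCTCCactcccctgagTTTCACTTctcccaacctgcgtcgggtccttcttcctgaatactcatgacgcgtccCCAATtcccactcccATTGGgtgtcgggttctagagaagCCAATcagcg
HLA-F: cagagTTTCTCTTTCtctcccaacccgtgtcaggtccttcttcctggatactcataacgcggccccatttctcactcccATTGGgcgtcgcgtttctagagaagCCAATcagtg
B2M: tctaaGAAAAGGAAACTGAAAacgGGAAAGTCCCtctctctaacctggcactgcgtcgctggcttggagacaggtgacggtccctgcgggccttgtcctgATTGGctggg
TAP1: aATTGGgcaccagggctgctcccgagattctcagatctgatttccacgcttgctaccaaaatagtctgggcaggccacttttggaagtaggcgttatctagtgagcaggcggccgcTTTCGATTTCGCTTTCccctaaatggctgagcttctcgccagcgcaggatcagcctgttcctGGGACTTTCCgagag
TAP2: tggggAAGCGAAAGCGAAAgctgc
TAPBP: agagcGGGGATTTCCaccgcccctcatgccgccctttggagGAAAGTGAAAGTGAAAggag

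These stretches lie at chr6:31357226-31357361 (- strand, HLA-B), chr6:31272139-31272289 (- strand, HLA-C), chr6:29723273-29723386 (+ strand, HLA-F), chr15:44711368-44711477 (+ strand, B2M), chr6:32853762-32853954 (- strand, TAP1), chr6:32838783-32838806 (- strand, TAP2) and chr6:33314079-33314139 (- strand, TAPBP). RefSeq also lists another start site for TAP1, whose window at chr6:32852712-32853011 (- strand) held none of the motifs searched and is not shown. The stretches were cut around their motifs, so the shares below compare whole windows of 300 bases. Each of the 7 genes had a window with the interferon factor core, which 22.8% of the 35116 RefSeq promoters of 300 bases also hold. The extended form was present for HLA-F, B2M, TAP1, TAP2 and TAPBP, against 3.57% of all promoters. HLA-B, HLA-C and B2M also had TGACG followed within 25 bases by ATTGG, the reverse complement of a CCAAT box, an arrangement found in 0.441% of all promoters. That pair, searched on the strand of the gene, was not in the window of HLA-F, TAP1, TAP2 or TAPBP. An NF-kB site, in 5.91% of all promoters, was found for HLA-B, HLA-C, B2M, TAP1 and TAPBP, and a CCAAT box, in 34.6%, for HLA-B, HLA-C, HLA-F, B2M and TAP1. A match describes letters only and shows no binding.

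In the control libraries the order of levels was read per kilobase of the exon length given in the count table. HLA-C stood highest at 84 ± 13.6 CPM per kb (SD, n = 3), followed by B2M at 70.6 ± 12.1, HLA-E at 60 ± 6.81, TAPBP at 50.5 ± 7.87 and HLA-B at 45.6 ± 12.3. Neighbours among these 5 overlapped in their libraries. TAP1 at 11.2 ± 1.42 and TAP2 at 7.08 ± 0.118 CPM per kb lay well below them without overlap. HLA-F at 0.904 ± 0.0861 and NLRC5 at 0.831 ± 0.0958 CPM per kb came last and overlapped each other. The length used for B2M was 6089 bases, all annotated exons together, so its level per kb is low relative to a count over a single short transcript.

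With knockdown of MPZL3, NLRC5 rose about 2-fold, TAP2 fell, and TAP1 and TAPBP fell by smaller amounts. The heavy chains HLA-B, HLA-C, HLA-E and HLA-F and the light chain B2M did not pass the test when both hairpins were pooled. So 4 of the 9 genes were called (edgeR's quasi-likelihood test, Benjamini-Hochberg adjusted p under 0.05), 1 higher and 3 lower, against 33% of all tested genes (15.9% higher and 17% lower). The share of genes called is therefore near that of the whole table, and the median log2 fold change over the 9 genes was 0.21, beside 0.0045 over all tested genes.

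**Figure D1:**
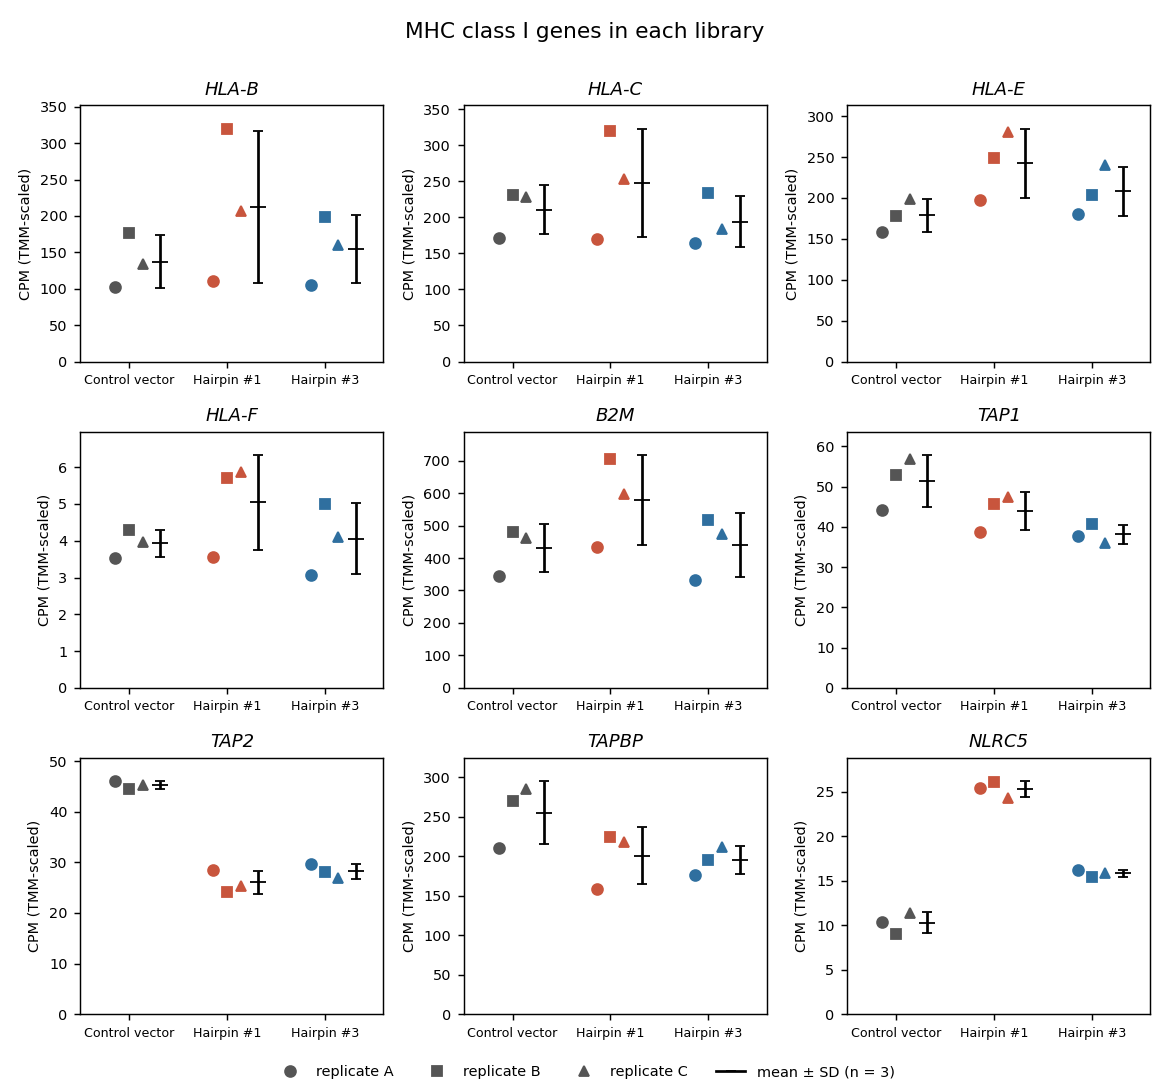
Level of each gene in CPM (TMM-scaled, linear axis from 0) in the 9 libraries, with symbols for replicates A, B and C and bars for the mean ± SD (n = 3). NLRC5 stands apart in all 3 groups and TAP2 is lower in all 6 knockdown libraries, whereas HLA-B, HLA-C, HLA-E, HLA-F and B2M overlap between groups.

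Taken hairpin by hairpin, hairpin #1 gave 3 calls, with HLA-E and NLRC5 higher and TAP2 lower (37.8% of all tested genes were called, 18% higher and 19.7% lower). Hairpin #3 gave 3 calls, with NLRC5 higher and TAP1 and TAP2 lower (34.7% of all tested genes, 16.6% higher and 18.1% lower). The median log2 fold change of the 9 genes was 0.36 with hairpin #1 and 0.04 with hairpin #3. Both comparisons use the same 3 control libraries. With a log2 fold change of at least 1 in size also required, NLRC5 with hairpin #1 was the 1 call left. The background then was 14.7% of tested genes over both hairpins, 16.3% with hairpin #1, 15.3% with hairpin #3 and 3.93% between the hairpins. These libraries come from bulk RNA, in which fewer cells expressing a gene and less RNA per cell cannot be told apart.

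**Figure D2:**
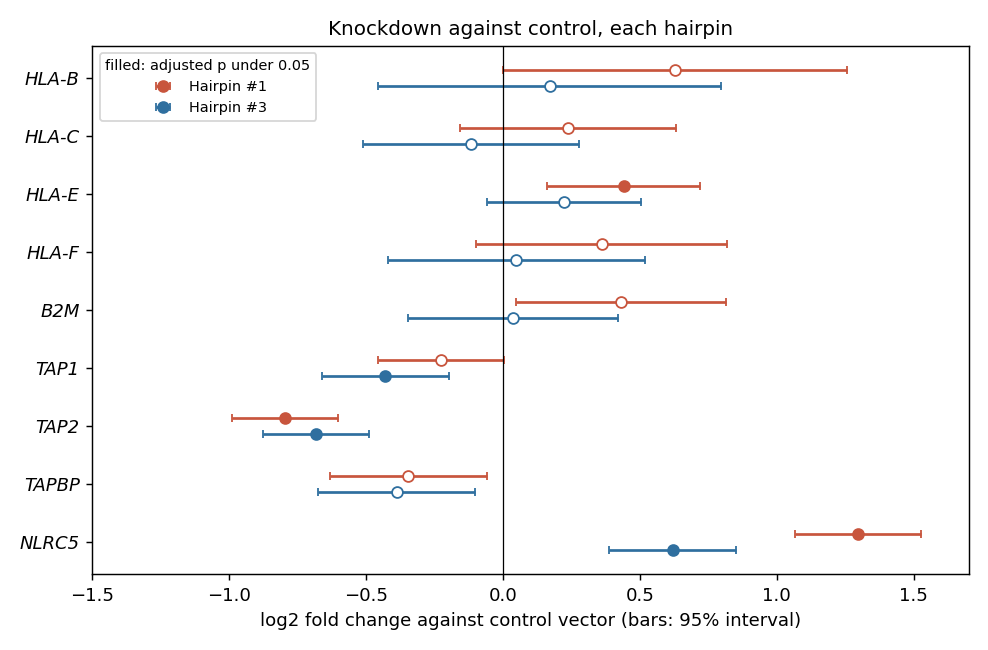
Log2 fold change against the control vector for each gene with hairpin #1 and hairpin #3, with bars for the 95% interval and filled symbols for an adjusted p under 0.05. HLA-E, NLRC5 and TAP2 are filled for hairpin #1, and NLRC5, TAP1 and TAP2 for hairpin #3.

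HLA-B and HLA-C are the classical heavy chains that present peptides to T cells. HLA-B (ENSG00000234745, chr6:31353872-31357188, hg38) measured 103, 176 and 133 CPM in control replicates A, B and C, 110, 320 and 207 CPM with hairpin #1, and 105, 198 and 160 CPM with hairpin #3. The 3 groups overlapped, replicate B was the highest of each group, and the 320 CPM of hairpin #1 replicate B was the highest value. Its log2 fold change was 0.63 (SE 0.32, adjusted p = 0.144) with hairpin #1 and 0.17 (SE 0.32, adjusted p = 0.733) with hairpin #3, and 0.42 (SE 0.317, adjusted p = 0.349) with both hairpins pooled. Without hairpin #1 replicate A, the hairpin #1 value became 0.94 (adjusted p = 0.00982). That value was 0.54 (adjusted p = 0.000767) with the replicate letter as a term in the model.

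HLA-C (ENSG00000204525, chr6:31268749-31272130) measured 171, 232 and 229 CPM in control replicates A, B and C, 171, 320 and 254 CPM with hairpin #1, and 165, 234 and 184 CPM with hairpin #3. The ranges of the control and hairpin #3 libraries nearly coincided, and hairpin #1 extended above both through replicates B and C. None of the fold changes passed the test, with 0.24 (SE 0.201, adjusted p = 0.388) for hairpin #1 and -0.12 (SE 0.201, adjusted p = 0.706) for hairpin #3 on the log2 scale. The 95% interval with both hairpins pooled ran from -0.33 to 0.47. Without hairpin #1 replicate A the value for that hairpin was 0.45 (adjusted p = 0.0489).

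HLA-E and HLA-F are nonclassical heavy chains. HLA-E presents mainly leader peptides of other class I chains to NKG2A and NKG2C receptors of natural killer cells. HLA-E (ENSG00000204592, chr6:30489467-30494205) measured 158, 178 and 199 CPM in control replicates A, B and C, 197, 249 and 281 CPM with hairpin #1, and 180, 204 and 240 CPM with hairpin #3. Hairpin #1 overlapped control through its replicate A alone, at 197 CPM beside 199 CPM in control replicate C. HLA-E rose with hairpin #1 by 0.44 on the log2 scale (SE 0.143, adjusted p = 0.0272). With hairpin #3 it was 0.22 (SE 0.143, adjusted p = 0.265), and over both hairpins 0.34 (SE 0.141, adjusted p = 0.0911). The call with hairpin #1 was lost without control replicate A (0.36, adjusted p = 0.0927), control replicate B (0.44, adjusted p = 0.0746), hairpin #1 replicate B (0.42, adjusted p = 0.0795) or hairpin #1 replicate C (0.32, adjusted p = 0.124). Over both hairpins it passed without hairpin #3 replicate A (0.39, adjusted p = 0.0427). With the replicate letter in the model it also passed over both hairpins (0.33, adjusted p = 0.0195) and with hairpin #3 (0.22, adjusted p = 0.0163).

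HLA-F (ENSG00000204642, chr6:29722775-29738528) was a low-count gene, with 52 to 137 counts per library. It measured 3.54, 4.28 and 3.97 CPM in control replicates A, B and C, 3.55, 5.7 and 5.87 CPM with hairpin #1, and 3.06, 4.99 and 4.1 CPM with hairpin #3. All groups overlapped, and the log2 fold change over both hairpins was 0.21 (SE 0.225, adjusted p = 0.512). In GENCODE 29, 12.3% of its exon bases also lie in the antisense gene HLA-F-AS1. Of the same exon bases, 16.1% lie in AL645939.1 and 5.92% in RPL23AP1, both also on the opposite strand. The libraries carry no strand, so reads over shared bases cannot be separated between these genes and HLA-F.

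B2M is the light chain shared by all class I heavy chains, without which they do not reach the cell surface. B2M (ENSG00000166710, chr15:44711477-44718877) measured 345, 481 and 463 CPM in control replicates A, B and C, 433, 707 and 599 CPM with hairpin #1, and 331, 517 and 474 CPM with hairpin #3. Control and hairpin #3 overlapped over most of their span, while hairpin #1 had the 2 highest libraries of the series. The fold changes did not pass the test, at 0.43 (SE 0.196, adjusted p = 0.102) with hairpin #1 and 0.04 (SE 0.196, adjusted p = 0.913) with hairpin #3 on the log2 scale. Without hairpin #1 replicate A the former became 0.6 (adjusted p = 0.0178). A model with the replicate letter as a term gave 0.42 with hairpin #1 (adjusted p = 0.000159).

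For most of the chains and B2M the replicate letter went with the level. Replicate A was the lowest library in each of the 3 groups for HLA-B, HLA-C, HLA-E, HLA-F, B2M and TAPBP, 6 of the 9 genes, while 15.4% of all tested genes showed the same order. For HLA-B, replicate A lay below the mean of B and C by a log2 difference of -0.58 in control, -1.22 with hairpin #1 and -0.76 with hairpin #3. For B2M the differences were -0.45, -0.59 and -0.58 in the same order. TAP2 was highest in replicate A of all 3 groups, and NLRC5 differed from the mean of B and C by at most 0.05 in size. Replicate A also had the lowest share of mitochondrial counts in each group, 2.75%, 2.91% and 3.03%, beside 3.48% to 4.01% in replicates B and C. The labels do not say what a letter stands for, and the part of the mitochondrial share in these levels was not tested.

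**Figure D3:**
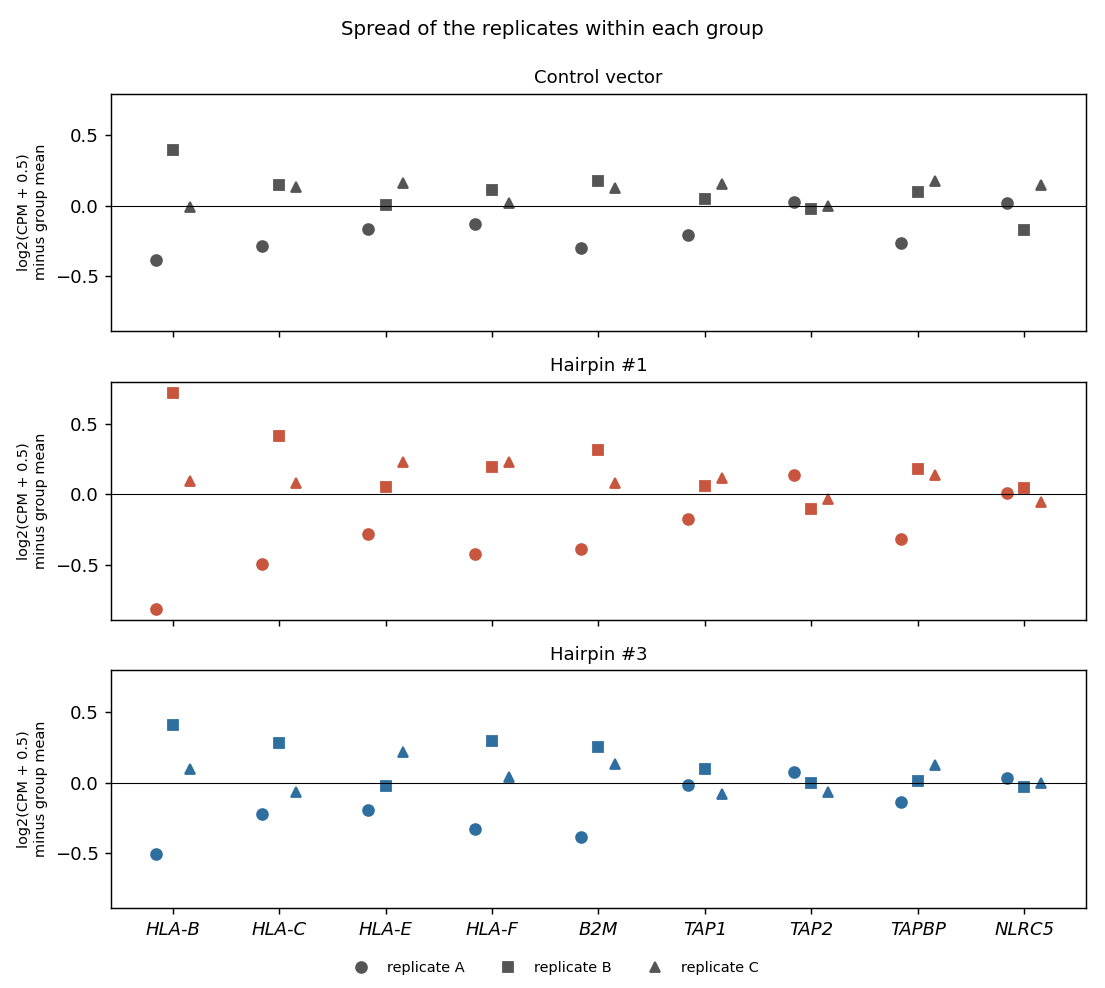
Log2(CPM + 0.5) of each gene minus the mean of its group, for replicates A, B and C of the control vector, hairpin #1 and hairpin #3. Replicate A is the lowest point in every group for HLA-B, HLA-C, HLA-E, HLA-F, B2M and TAPBP, and replicate A of TAP2 is the highest point in every group.

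With replicate A left out of all 3 groups, a choice made after seeing these values, hairpin #1 gave 7 calls among the 9 genes, with 40.8% of all tested genes called. HLA-B was then higher by 0.78 (adjusted p = 0.000683), B2M by 0.48 (adjusted p = 0.00177) and HLA-C by 0.33 (adjusted p = 0.0434) on the log2 scale. TAPBP was lower, at -0.32 (adjusted p = 0.0173). Each of these had the same direction with all libraries included. That fit rests on 2 libraries a group.

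TAP1 and TAP2 form the transporter. TAP2 (ENSG00000204267, chr6:32821833-32838780) measured 46, 44.5 and 45.2 CPM in control replicates A, B and C, 28.6, 24.1 and 25.4 CPM with hairpin #1, and 29.7, 28.1 and 26.8 CPM with hairpin #3. Each of the 6 knockdown libraries was lower than each of the 3 control libraries, an order seen for 17.6% of tested genes, and the hairpins overlapped each other. TAP2 fell by 0.8 on the log2 scale with hairpin #1 (SE 0.0987, adjusted p = 2.65e-05), by 0.68 with hairpin #3 (SE 0.0987, adjusted p = 0.000116) and by 0.74 over both (SE 0.0875, adjusted p = 4.52e-05). This corresponds to 0.599 times the control level, and the call held in each of the 17 alternative analyses. In GENCODE 29, TAP2 shares 32.3% of its exon bases with a same-strand gene, AL669918.1, which had no count in any library of the table. Whether reads over the shared bases were counted for TAP2 is not known. Its level per kb, and that of TAP1 relative to it, are therefore uncertain.

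TAP1 (ENSG00000168394, chr6:32845209-32853978) measured 44.3, 52.9 and 57 CPM in control replicates A, B and C, 38.6, 45.6 and 47.6 CPM with hairpin #1, and 37.7, 40.8 and 35.9 CPM with hairpin #3. Each hairpin #3 library lay below every control library, while hairpin #1 overlapped control. The share of all tested genes with such an order for a single hairpin was not computed. TAP1 fell by 0.43 on the log2 scale with hairpin #3 (SE 0.119, adjusted p = 0.0122) and by 0.32 over both hairpins (SE 0.114, adjusted p = 0.0474), and it was -0.23 with hairpin #1 (SE 0.118, adjusted p = 0.154). The hairpin #3 call was lost without control replicate C (-0.35, adjusted p = 0.0608). The call over both hairpins was lost without control replicate B (adjusted p = 0.151), control replicate C (0.211), hairpin #1 replicate A (0.0779), or hairpin #3 replicate A (0.0786), B (0.0704) or C (0.0742). Conversely, hairpin #1 passed without control replicate A (-0.32, adjusted p = 0.0499) or with the replicate letter in the model (-0.22, adjusted p = 0.0472).

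TAP1 lies on chromosome 6 within the annotated span of PSMB9, an immunoproteasome subunit gene on the opposite strand, but they share no exon base in GENCODE 29. PSMB8-AS1 overlaps 9.49% of its exon bases on the opposite strand. The level of TAP1 relative to TAP2, per kilobase and within a library, was 1.59 ± 0.219 in control, 2.38 ± 0.425 with hairpin #1 and 1.89 ± 0.127 with hairpin #3 (SD, n = 3). All hairpin libraries exceeded the highest control library, at 1.76. How often ratios of other gene pairs show that order was not computed.

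Tapasin bridges the empty class I molecule to TAP. TAPBP (ENSG00000231925, chr6:33299694-33314387) measured 210, 270 and 285 CPM in control replicates A, B and C, 159, 225 and 218 CPM with hairpin #1, and 177, 196 and 212 CPM with hairpin #3. Control replicate A fell inside the knockdown range, and the other control libraries lay above every knockdown library. TAPBP fell by 0.37 on the log2 scale over both hairpins (SE 0.129, adjusted p = 0.0466) and did not pass with hairpin #1 (-0.35, SE 0.146, adjusted p = 0.0799) or hairpin #3 (-0.39, SE 0.147, adjusted p = 0.0557). The call over both was lost without control replicate B (-0.33, adjusted p = 0.167), control replicate C (-0.28, adjusted p = 0.205), hairpin #1 replicate A (adjusted p = 0.0681), or hairpin #3 replicate A (0.0795) or B (0.0722). Without control replicate A it passed with hairpin #1 (-0.47, adjusted p = 0.0224) and hairpin #3 (-0.51, adjusted p = 0.0151), and without hairpin #1 replicate A with hairpin #3 (-0.39, adjusted p = 0.0199). A model with the replicate letter called TAPBP lower with hairpin #1 (-0.35, adjusted p = 0.00111) and hairpin #3 (-0.38, adjusted p = 0.000637). Hairpin #3 also passed in DESeq2's Wald test (adjusted p = 0.0427), with library totals in place of TMM (0.0499) and with only the compared libraries (0.0307). With no filter on low counts both hairpins passed, #1 at 0.02 and #3 at 0.00769. Of the 17 alternatives, 4 called TAPBP with hairpin #1 and 8 with hairpin #3.

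Within a library, the summed heavy chains HLA-B, HLA-C, HLA-E and HLA-F kept a near-constant level relative to B2M, while the loading genes did not. Per kilobase the heavy chains stood at 2.7 ± 0.0493 times B2M in control, 2.62 ± 0.184 times with hairpin #1 and 2.79 ± 0.168 times with hairpin #3 (SD, n = 3). TAPBP stood at 0.717 ± 0.0352, 0.421 ± 0.0332 and 0.546 ± 0.0937 times B2M. TAP2 stood at 0.103 ± 0.0212, 0.0452 ± 0.0157 and 0.0637 ± 0.0188 times B2M. For TAPBP and TAP2 every knockdown library was below every control library, and for TAP1 hairpin #3 replicate A, at 0.152, overlapped control. The summed heavy chains relative to TAPBP were 3.77 ± 0.18 in control, 6.26 ± 0.86 with hairpin #1 and 5.17 ± 0.665 with hairpin #3, without overlap between control and either hairpin. These ratios were chosen with the values known and were not tested. How often ratios of other genes separate the groups was not computed.

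**Figure D4:**
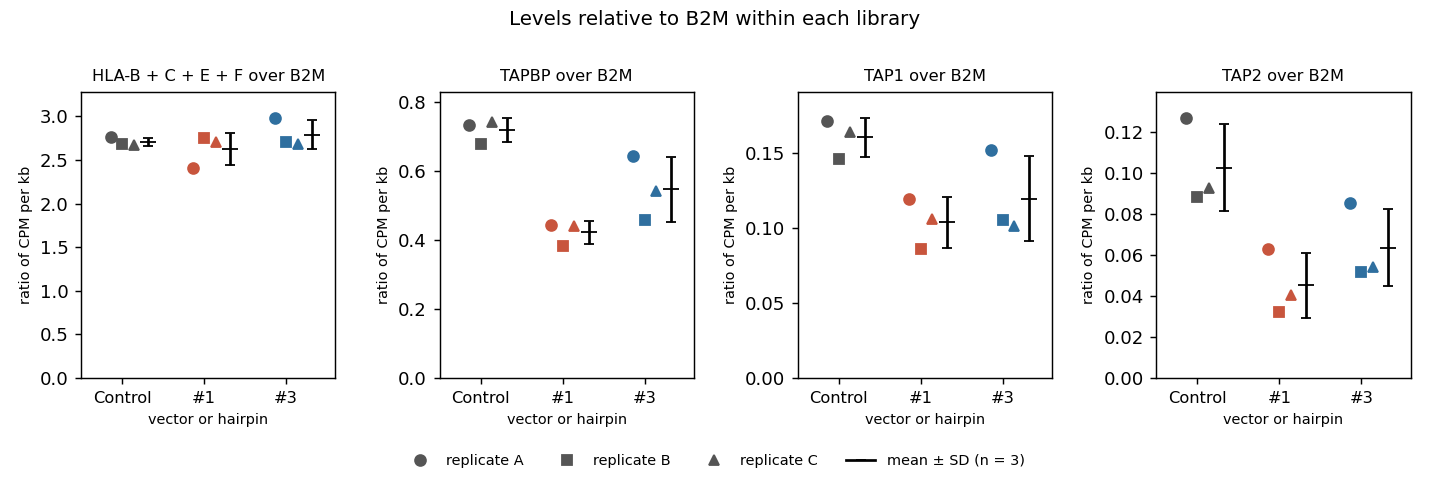
Level per kilobase of the summed heavy chains (HLA-B, HLA-C, HLA-E and HLA-F), TAPBP, TAP1 and TAP2 divided by that of B2M in the same library, with bars for the mean ± SD (n = 3). The heavy chain ratio stays between 2.41 and 2.98 in all libraries, and the TAPBP and TAP2 ratios of the knockdown libraries lie below those of control. The size of a ratio depends on the exon lengths used.

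NLRC5 is the transactivator of class I genes, and it gave the largest change among the 9 genes. NLRC5 (ENSG00000140853, chr16:56989485-57083531) measured 10.4, 9.06 and 11.4 CPM in control replicates A, B and C, 25.5, 26.1 and 24.3 CPM with hairpin #1, and 16.2, 15.5 and 15.8 CPM with hairpin #3. The 3 groups did not overlap, with hairpin #1 highest and hairpin #3 between it and control. Each of the 6 knockdown libraries was higher than each of the 3 control libraries, an order seen for 15.5% of tested genes. NLRC5 rose 2.45-fold with hairpin #1 (log2 1.295, SE 0.117, adjusted p = 1.47e-06), 1.54-fold with hairpin #3 (log2 0.62, SE 0.119, adjusted p = 0.0011) and 2-fold over both (log2 fold change 1, SE 0.209, adjusted p = 0.00305). The calls held in each of the 17 alternative analyses, with the value over both hairpins between 0.91 and 1.08 on the log2 scale.

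Between the hairpins NLRC5 was the 1 gene called of the 9, where 11.6% of all tested genes were called (6.33% higher and 5.3% lower with hairpin #3). NLRC5 was lower with hairpin #3 than with hairpin #1 by a log2 difference of -0.68 (SE 0.115, adjusted p = 0.00185). MPZL3 itself stood at 1.89 ± 0.0926 CPM with hairpin #1 and 1.57 ± 0.514 CPM with hairpin #3. For HLA-B the difference was -0.46 with a 95% interval of -1.08 to 0.17, for B2M -0.4 with an interval of -0.78 to -0.01 (adjusted p = 0.236), and for TAP2 0.11 (SE 0.0995, adjusted p = 0.536). Without hairpin #1 replicate A, HLA-C had a difference of -0.56 (adjusted p = 0.0407). With replicate A left out of all 3 groups, HLA-B at -0.55 (adjusted p = 0.0227), HLA-C at -0.46 (adjusted p = 0.0152) and B2M at -0.4 (adjusted p = 0.0174) were called lower with hairpin #3 beside NLRC5. HLA-B, HLA-C, HLA-E and B2M were also called lower with hairpin #3 when the replicate letter was in the model. There 23.1% of all tested genes were called.

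In the rest of peptide supply and loading, few genes were called over both hairpins. Of 22 such genes, 21 were tested, HLA-G having no count in any library, and 3 were called, all lower, against 33% of all tested genes. LNPEP, an aminopeptidase that trims peptides in endosomes, fell by 0.81 on the log2 scale (adjusted p = 0.000518). PSMB10, an immunoproteasome subunit, fell by 0.86 (adjusted p = 0.0314) from 5.04 ± 1.51 CPM in control, and CALR, the chaperone calreticulin of the loading complex, fell by 0.32 (adjusted p = 0.0278). The calls were lost for PSMB10 without control replicate C (-0.59, adjusted p = 0.196), hairpin #1 replicate A (0.0551) or B (0.0513) or hairpin #3 replicate A (0.0501), and for CALR without control replicate B (adjusted p = 0.141) or C (0.106). The median log2 fold change of the 21 genes was -0.07.

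The remaining immunoproteasome subunits did not pass over both hairpins, PSMB8 at -0.09 (adjusted p = 0.635) and PSMB9 at 0.11 (adjusted p = 0.765). The peptide-trimming enzymes of the endoplasmic reticulum, ERAP1 at 0.06 (adjusted p = 0.801) and ERAP2 at -0.01 (adjusted p = 0.983), did not pass either. PSMB9 did differ between hairpins, at 33.5 ± 7.36 CPM with hairpin #1 and 21.5 ± 2.71 CPM with hairpin #3 (log2 difference -0.64, adjusted p = 0.0346), with 25.6 ± 5.18 CPM in control. The PSMB9 call was lost without control replicate B (adjusted p = 0.0528), hairpin #1 replicate B (0.137) or C (0.126), or hairpin #3 replicate A (0.0904) or B (0.133). With hairpin #1 there were 3 calls in this list, 1 higher and 2 lower, against 37.8% of all tested genes. With hairpin #3 there were 4, 1 higher and 3 lower, against 34.7%.

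Among 27 regulators of class I transcription, all tested, 9 were called over both hairpins, 5 higher and 4 lower, a share close to the 33% of all tested genes, and the median log2 fold change was 0.1. IRF1, the interferon regulatory factor that binds the extended motif marked in the promoters above, fell. It measured 20.5, 27.1 and 35.8 CPM in control replicates A, B and C, 17.4, 12.2 and 15.4 CPM with hairpin #1, and 11, 5.43 and 8.79 CPM with hairpin #3. The 3 groups did not overlap, in the order control, hairpin #1, hairpin #3. All 6 knockdown libraries were lower than all 3 control libraries, as for 17.6% of tested genes. The fitted value was -1.25 over both hairpins (SE 0.289, adjusted p = 0.00578), -0.89 with hairpin #1 (SE 0.234, adjusted p = 0.00882) and -1.73 with hairpin #3 (SE 0.246, adjusted p = 0.000101), all on the log2 scale. So NLRC5 rose with each hairpin while IRF1 fell with each.

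Of the other regulators called, SOCS1, a brake on cytokine receptor signalling, fell by 0.71 (adjusted p = 0.0288), and EZH2, the methyltransferase of the Polycomb complex, fell by 0.45 (adjusted p = 0.0432). NFYB, a subunit of the factor that binds CCAAT boxes, rose by 0.56 (adjusted p = 0.00051), the interferon gamma receptor chain IFNGR2 by 0.54 (adjusted p = 0.000465), and NFKB1 by 0.48 (adjusted p = 0.0156). The SOCS1 call was lost without control replicate B (adjusted p = 0.0749) or C (-0.47, adjusted p = 0.193), and the NFKB1 call without control replicate B (0.0692) or C (0.0658). The EZH2 call was lost without control replicate A (-0.32, adjusted p = 0.206) or B (0.101), hairpin #1 replicate A (0.0692), B (0.0672) or C (0.0739), or hairpin #3 replicate C (0.0556). IRF2 at 0.17 (adjusted p = 0.348), RFX5 at -0.04 (adjusted p = 0.756) and CIITA, the class II transactivator related to NLRC5, at -0.35 (adjusted p = 0.298) did not pass. With hairpin #1 there were 7 regulators higher and 4 lower, where 37.8% of all tested genes were called, and with hairpin #3 there were 5 higher and 1, IRF1, lower, where 34.7% were.

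**Figure D5:**
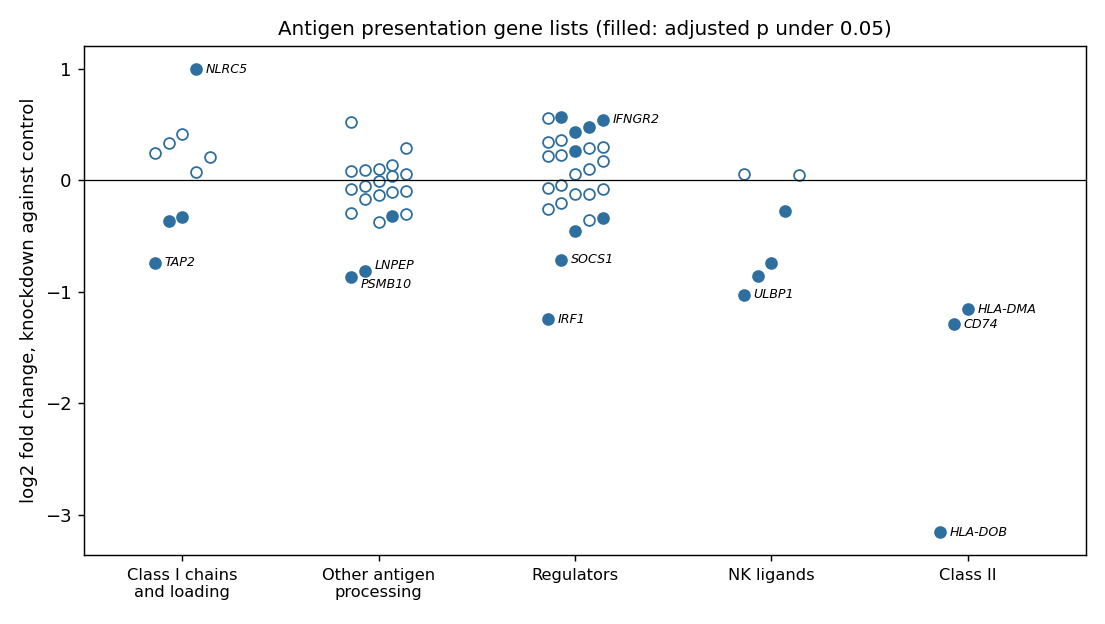
Fitted log2 fold change of knockdown (both hairpins) against control for each tested gene of 5 lists, with filled symbols for an adjusted p under 0.05 and HLA-DQB1 left out because it had no count in the knockdown libraries. NLRC5 at 1 and TAP2 at -0.74 bound the class I genes, and the 3 class II genes shown lie between -1.16 and -3.16. The lowest of these, HLA-DOB, passed the filter through its control counts alone.

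MHC class II genes present peptides of endocytosed proteins, and few of them passed the filter here. Of 12 class II genes, 4 passed the filter on low counts and 5 had at most 3 counts in every library. All 4 were called lower over both hairpins, with hairpin #1 and with hairpin #3. Of all tested genes 17%, 19.7% and 18.1% were called lower in the same order. HLA-DOB and HLA-DQB1 passed the filter through their control libraries alone, so a call of these could only be lower. Only CD74 and HLA-DMA could have gone either way. CD74, the invariant chain that guides class II molecules, stood at 101 ± 15.9 CPM in the control libraries, beside 39.5 ± 5.2 for hairpin #1 and 43 ± 5.93 for hairpin #3, and fell (log2 fold change over both hairpins -1.29, adjusted p = 9.27e-06). HLA-DMA fell by 1.16 on the log2 scale (adjusted p = 0.00715), a call lost without control replicate C (-0.84, adjusted p = 0.0635). HLA-DOB had 26, 31 and 31 counts in control replicates A, B and C and 0 to 6 counts in the knockdown libraries (fitted log2 fold change -3.16, adjusted p = 0.000281). HLA-DQB1 had 18, 23 and 12 counts in control and none in the knockdown libraries, at least 5.75-fold lower when each knockdown library is set to a floor of 3 counts, and such floors cover counting error only. The median log2 fold change of the 4 genes was -2.22, or -1.91 with HLA-DQB1 at that floor. Both medians include HLA-DOB and HLA-DQB1, which the filter admitted by their control counts.

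NKG2D is a receptor that natural killer and T cells use beside class I recognition. Of 8 genes for its ligands 6 were tested, and 4 were called over both hairpins, all lower, where 17% of all tested genes were called lower. The other ligands tested, ULBP3 at 0.05 (adjusted p = 0.877) and RAET1G at 0.06 (adjusted p = 0.951), did not pass and were named after their values were seen. MICB fell by 0.74 (adjusted p = 0.00016), ULBP1 by 1.02 (adjusted p = 0.0068), ULBP2 by 0.86 (adjusted p = 0.000371) and MICA by 0.28 (adjusted p = 0.0455) on the log2 scale. The ULBP1 call was lost without control replicate C (-0.82, adjusted p = 0.0523). The MICA call was lost without any 1 of 7 libraries, namely control replicates A, B and C, hairpin #1 replicate A, and hairpin #3 replicates A, B and C, with adjusted p from 0.0704 to 0.131. The median log2 fold change of the 6 genes was -0.51.

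The genes around the class I loci were looked at for a shift of the whole region. The 114 tested genes on chromosome 6 between 29 and 34 Mb that are not members had a median log2 fold change of 0.03 over both hairpins, with 14 called higher and 22 lower. The 42 tested genes within 2 Mb of NLRC5 had a median of 0.18, with quartiles of 0.004 and 0.5, and 13 were called higher and 4 lower, beside 15.9% and 17% of all tested genes. The log2 fold change of 1 for NLRC5 lay beyond that upper quartile. The 34 within 2 Mb of B2M had a median of -0.04, with 3 higher and 5 lower.

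Across the 9 libraries, log2 CPM of HLA-B followed that of B2M (Pearson's r = 0.945), HLA-C (0.929) and HLA-F (0.921), and TAP1 followed TAPBP (0.852), whereas TAP2 and NLRC5 ran against each other (-0.885). These values are descriptions over 9 libraries that share groups and replicate letters. The tested gene outside the 9 with the most similar pattern was GLT8D1 for HLA-C (r = 0.978), GPSM3 for HLA-E (0.981), WBP1 for HLA-F (0.938), WIPI1 for B2M (0.969), TBC1D10A for TAP1 (0.979), C1orf116 for TAP2 (0.998), OLFM2 for TAPBP (0.998) and NRBP1 for NLRC5 (0.993). Each is the highest r of a search over all tested genes outside the 9. How high the best match of other genes runs was not computed, so these values show no shared regulation.

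The heavy chain genes resemble each other, and reads can be assigned between them with error. Of the 50-base windows in a long GENCODE 29 transcript of each gene, 2.54% were also present in another gene for HLA-B, 6.71% for HLA-C, 5.13% for HLA-E and 1.7% for HLA-F, against none for B2M and NLRC5. The share was 6.09% for TAPBP, 1.07% for TAP1 and 35.8% for TAP2, the last all with AL669918.1. The alleles of the line can also differ from the reference, which was not tested.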

How the data were processed

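Per the labels, poly(A) RNA was made into libraries without strand information. The submitters' processing notes name HISAT2 2.0.5, featureCounts 1.5.0-p3 and hg38. How reads mapping to several genes were treated is not given in the sources used here. The authors deposited 1 table of raw read counts per gene, without normalization or filter. From it, genes were filtered with filterByExpr (minimum count 10, minimum total 15), which kept 99.89% of the counts, scaled by TMM and tested with edgeR 4.0.16 (R 4.3.3, quasi-likelihood, adjusted over 15975 genes, threshold 0.05). As in the study's grouping, both hairpins formed 1 arm of 6 libraries against 3 controls. The other comparisons used a model of 3 groups. SE was the fold change over the root of F, and 95% intervals are 1.96 SE. Such intervals are narrower than the quasi-likelihood test allows, since it has few residual degrees of freedom. The scripts were tested on simulated data. DESeq2 1.42.0, other filters and scalings, a replicate block and each library left out were alternatives. The named genes were the 9 members, MPZL3, up to 6 called genes of each list with the largest change, and IRF1, IRF2, RFX5, CIITA, PSMB8, PSMB9, PSMB10, ERAP1 and ERAP2, and the gene most like each member. Some results of these rules are not reported here. The members and lists were chosen with earlier results of these data known. HLA-G and the marker genes were named outside this rule.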

Additional observations from a re-analysis of the deposited data

Results flagged for a closer look

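These differences between the hairpins, each set against the same control, passed edgeR's quasi-likelihood test of hairpin #3 against hairpin #1 (adjusted p under 0.05, 3 libraries each). PSMB7, JAK2 and IFNGR1 were chosen after their values were seen. NLRC5 had a log2 difference of -0.68 (adjusted p = 0.00185), lower in each hairpin #3 library than in each hairpin #1 library. The share of all tested genes with that order was not computed. PSMB9 had -0.64 (adjusted p = 0.0346). The proteasome subunit PSMB7, which the interferon-induced PSMB10 replaces, had 0.34 (adjusted p = 0.0304). Among regulators, IRF1 had -0.84 (adjusted p = 0.043), the interferon gamma receptor chain IFNGR1 -0.68 (adjusted p = 0.0192), the kinase JAK2 0.43 (adjusted p = 0.0388) and NFKB1 0.38 (adjusted p = 0.023). NLRC5 kept its call without any 1 library, and the others did not. IRF1 was lost without control replicate B, hairpin #1 replicate A, B or C, or hairpin #3 replicate B or C (adjusted p from 0.0514 to 0.163). PSMB9 was lost without control replicate B, hairpin #1 replicate B or C, or hairpin #3 replicate A or B (0.0528 to 0.137). PSMB7 was lost without control replicate B, hairpin #1 replicate A or B, or hairpin #3 replicate B or C (0.0534 to 0.137). JAK2 was lost without control replicate B or any 1 hairpin library (0.0592 to 0.121). IFNGR1 was lost without hairpin #1 replicate B or any 1 hairpin #3 library (0.052 to 0.0679), with -0.44 in place of -0.68 in the first case, and NFKB1 without hairpin #1 replicate B or C or hairpin #3 replicate B or C (0.0508 to 0.124).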

How the results depend on the processing

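The calls of NLRC5 in the 4 comparisons and of TAP2 in the 3 against control held in all 17 alternatives. TAP1 over both hairpins was called in 9 of them, TAPBP in 12, HLA-E with hairpin #1 in 13 and TAP1 with hairpin #3 in 16. The number of the 9 genes called ran from 2 to 4 over both hairpins, 2 to 6 with hairpin #1, 2 to 4 with hairpin #3 and 1 to 2 between hairpins when 1 library was left out, with 23.2% to 32.5%, 30.1% to 38.6%, 27.7% to 36.4% and 6.57% to 12.3% of all tested genes called. With no filter it was 6 with hairpin #1 (20.3% of all tested genes) and 4 between hairpins (7.5%), and with replicate A left out of all groups (chosen after seeing the data) 7 (40.8%) and 4 (16.9%). With a log2 fold change of at least 1 also required it was 0, 1, 0 and 0 over both hairpins, with hairpin #1, with hairpin #3 and between hairpins. Among the other antigen processing genes the counts without 1 library ran from 1 to 5, 1 to 5, 1 to 6 and 0 to 3 in the same order. There the fold requirement left 0, 0, 1 and 0, and no filter gave 6 with hairpin #1. The replicate block changed more. Same-letter libraries correlated in their deviations from the group means by 0.051 to 0.466 over 9 pairs, and libraries of different letters by -0.437 to 0.185. The same letter correlated best in 15 of 18 cases, so libraries of a letter tended to deviate alike. What a letter marks is not given, and the block was an alternative beside the main fit. With the replicate block, calls among the 9 genes were 7 with hairpin #1, 5 with hairpin #3 and 5 between hairpins (48.8%, 45.6% and 23.1% of all tested genes), newly including HLA-B and B2M with hairpin #1, HLA-E with hairpin #3 and pooled, and TAPBP with each hairpin, those among the other antigen processing genes were 5, 7, 8 and 6, and those over all genes between hairpins went from 1857 to 3689. Uncalled values near 0 changed sign when a library was left out. With hairpin #3 these were HLA-B (-0.055 to 0.389), HLA-F (-0.13 to 0.207) and B2M (-0.1 to 0.204). Over both hairpins they were HLA-C (-0.069 to 0.146), RFX5 (-0.086 to 0.015), PSMB9 (-0.018 to 0.273), ERAP1 (-0.037 to 0.114) and ERAP2 (-0.155 to 0.151, and 0.096 with replicate A left out of all groups). Between hairpins it was TAPBP (-0.186 to 0.046). Causes of these changes were not tested. The class II genes under the filter had too few counts to be tested. HLA-F had 52 to 137 counts per library. Its SE over both hairpins, 0.225, was near that of HLA-C at 0.203 and B2M at 0.204.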
